A study of Mus musculus with 4 samples.

Results

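Solute carriers are the membrane proteins that move nutrients, metabolites, metals and ions into cells and between the compartments inside them. Expression of 164 of their genes, out of 13834 genes listed, was examined in peritoneal macrophages of mice with and without a myeloid deletion of Dnmt1. The members were chosen by their symbols, an Slc subfamily number followed by the letter a and a number, and by a value of at least 10 counts in each of the 4 samples. Of the 205 symbols with this pattern, 38 fell under the limit and 3 (Slc40a1, Slc11a1 and Slc7a11) were left out by name. Slc6a4 and Slc4a3 lay just inside the limit, with lowest values of 10 and 11 counts, and Slc22a23 and Slc10a6 lay just outside it, with lowest values of 9 and 8 counts. The limit applies to the lowest sample, so a gene low in a single sample is left out, which is not independent of differences between samples, and the table lists only genes with a value above 0 in every sample. Symbols of another form, 34 in number, were not members.

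RNA was sequenced from thioglycolate-elicited peritoneal macrophages of 10-week-old mice, with 2 samples per genotype. Thioglycolate is an irritant that draws leukocytes into the peritoneal cavity. Both genotypes carry the floxed Dnmt1 gene; the controls, Dnmt1fl/fl, are labelled wt, and the Dnmt1KO mice also carry Lysm-Cre, which expresses the recombinase in myeloid cells. The labels do not say whether the samples came from separate mice, so p-values measure the spread between these samples, which may be technical. Dnmt1, the enzyme that copies CpG methylation onto newly made DNA, was at 86.6 and 67.0 CPM (counts-per-million values scaled by edgeR's TMM method) in Dnmt1fl/fl and at 36.96 and 42.71 CPM in Dnmt1KO. Values are given in the same order throughout, replicates 1 and 2 of Dnmt1fl/fl and then of Dnmt1KO.

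In macrophages, amino acid and glucose carriers supply protein synthesis and glycolysis, and proton-coupled carriers return lactate to the outside. Carriers of the phagosome and lysosome recover amino acids, peptides, nucleosides, heme and iron from engulfed cells and microbes. Most of the SLC25 subfamily lies in the inner membrane of mitochondria and exchanges ATP, phosphate, citrate and other metabolites with the cytosol. Solute carriers are grouped into numbered subfamilies by sequence, and the members fell into 45 of these. They were put into 14 classes, in most cases by main substrate.

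Because Dnmt1 acts on CpG sites, the 250 bases before the RefSeq transcription start (GRCm38.p6) were examined for them. The windows below belong to the members with the largest positive and negative log2 fold change among those with non-overlapping genotypes and at least 5 CPM (Slc25a39 and Slc7a6), to the amino acid carrier with the second largest positive value (Slc43a2), and, for contrast, to a highly expressed nucleoside carrier with no CpG (Slc28a2). Each CpG is in capitals, and each sequence runs 5′ to 3′ on the strand of its gene.
Slc25a39, chr11:102407518-102407767, minus strand: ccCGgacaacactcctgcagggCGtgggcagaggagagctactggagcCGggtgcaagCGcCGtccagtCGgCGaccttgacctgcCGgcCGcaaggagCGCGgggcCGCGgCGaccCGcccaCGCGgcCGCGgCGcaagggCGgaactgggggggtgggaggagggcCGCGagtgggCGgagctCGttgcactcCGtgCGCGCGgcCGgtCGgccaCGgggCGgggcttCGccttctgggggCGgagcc
Slc7a6, chr8:106168671-106168920, plus strand: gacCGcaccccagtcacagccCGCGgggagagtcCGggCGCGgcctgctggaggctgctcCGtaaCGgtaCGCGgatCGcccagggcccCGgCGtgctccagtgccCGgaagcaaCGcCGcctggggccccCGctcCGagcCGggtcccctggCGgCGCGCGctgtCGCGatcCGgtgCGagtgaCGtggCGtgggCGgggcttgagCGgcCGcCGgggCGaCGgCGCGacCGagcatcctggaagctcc
Slc43a2, chr11:75531862-75532111, plus strand: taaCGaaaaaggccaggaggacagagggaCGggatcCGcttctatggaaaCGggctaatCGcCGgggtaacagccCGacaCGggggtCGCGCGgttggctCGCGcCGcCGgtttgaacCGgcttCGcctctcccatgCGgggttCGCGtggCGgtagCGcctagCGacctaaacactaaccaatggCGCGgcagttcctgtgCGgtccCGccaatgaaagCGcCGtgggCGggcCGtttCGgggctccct
Slc28a2, chr2:122426185-122426434, plus strand: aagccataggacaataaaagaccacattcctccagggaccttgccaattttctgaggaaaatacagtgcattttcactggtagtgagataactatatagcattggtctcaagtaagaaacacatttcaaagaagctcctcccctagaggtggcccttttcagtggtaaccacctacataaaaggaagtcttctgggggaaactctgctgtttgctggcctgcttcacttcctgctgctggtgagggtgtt

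These windows held 35, 38, 32 and 0 CpG sites. Slc25a39, which was higher in Dnmt1KO, and Slc7a6, which was lower, had windows of much the same CpG content, and the GC content was 77.2% in both. Genes on chromosome 18, members among them, were left out of this step and of the genes compared below. A RefSeq start was found for 119 of the 164 members, and where a gene had several starts the window with the most CpG sites was taken. The members' windows held a median of 16 CpG sites (range 0 to 43), beside 17 over 9603 protein-coding genes tested. A GC content of at least 50% with an observed over expected CpG ratio of at least 0.6 was met by 79 of the 119 members (66.4%) and by 66.7% of all these genes. The median was 18 in the 14 members with a window whose Dnmt1KO samples were both higher and 21.5 in the 12 whose Dnmt1KO samples were both lower. Methylation of these sites was not measured here.

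The 4 libraries held 20228071 to 24198943 counts, so that 3 counts correspond to 0.124 to 0.148 CPM. The macrophage list was present in full (8 of 8 genes), with sums of 35500, 34600, 17900 and 21500 CPM. Most of it was Lyz2, the gene at which the LysM-Cre allele lies, at 29500, 28600, 11400 and 15700 CPM and lower in both Dnmt1KO samples, and the other 7 genes summed to 5980, 6000, 6550 and 5740 CPM. The libraries differed in other cell types. All 8 neutrophil markers were listed, with sums of 228, 327, 905 and 225 CPM, and all 6 B cell markers, with sums of 318, 483, 130 and 525 CPM. Dnmt1KO replicate 1 was thus the highest for neutrophil genes and the lowest for B cell genes. The 5 T cell, 4 mast cell and 4 mesothelial markers summed to at most 23.9, 6.04 and 6.97 CPM, 3 of the 4 platelet markers (all but Gp9) to 85.9 to 163 CPM, 2 of 5 eosinophil markers to at most 11.8 CPM, with the defining Epx and Prg2 not listed, and 1 of 4 red cell markers to at most 0.847 CPM. In these bulk samples a smaller number of cells of a type and less RNA per cell cannot be told apart.

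Over all genes tested the TMM-scaled values summed to 985200, 964500, 1099000 and 957800 CPM, and over the members to 8797, 8040, 8960 and 8602 CPM. Their mean levels ran from 0.66 to 545 CPM with a median of 30.9 CPM; 20 members reached 100 CPM and 27 were under 5 CPM. Levels can be set beside each other only per length, which was known for 162 members (not for Slc49a4 and Slc66a2). Per kilobase of merged exons, the highest was Slc25a5, the ADP/ATP carrier of the mitochondrial inner membrane, at 167 CPM per kb, followed by Slc39a1, a zinc importer, at 80.8, Slc25a3, the mitochondrial phosphate carrier, at 68.6, and Slc6a6, the taurine transporter, at 64.4 CPM per kb. Next came Slc15a3, a proton-coupled histidine and peptide carrier of lysosomes, at 59.0, Slc3a2, the heavy chain CD98 of several amino acid exchangers, at 56.0, and Slc25a11, the oxoglutarate carrier, at 41.8 CPM per kb. The median member stood at 5.7 CPM per kb. Summed by class, amino acid carriers (19 genes; 1974, 1594, 1727 and 2042 CPM) and mitochondrial carriers (36 genes; 1723, 1735, 1970 and 1727 CPM) took the largest shares of the counts.

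**Figure D1:**
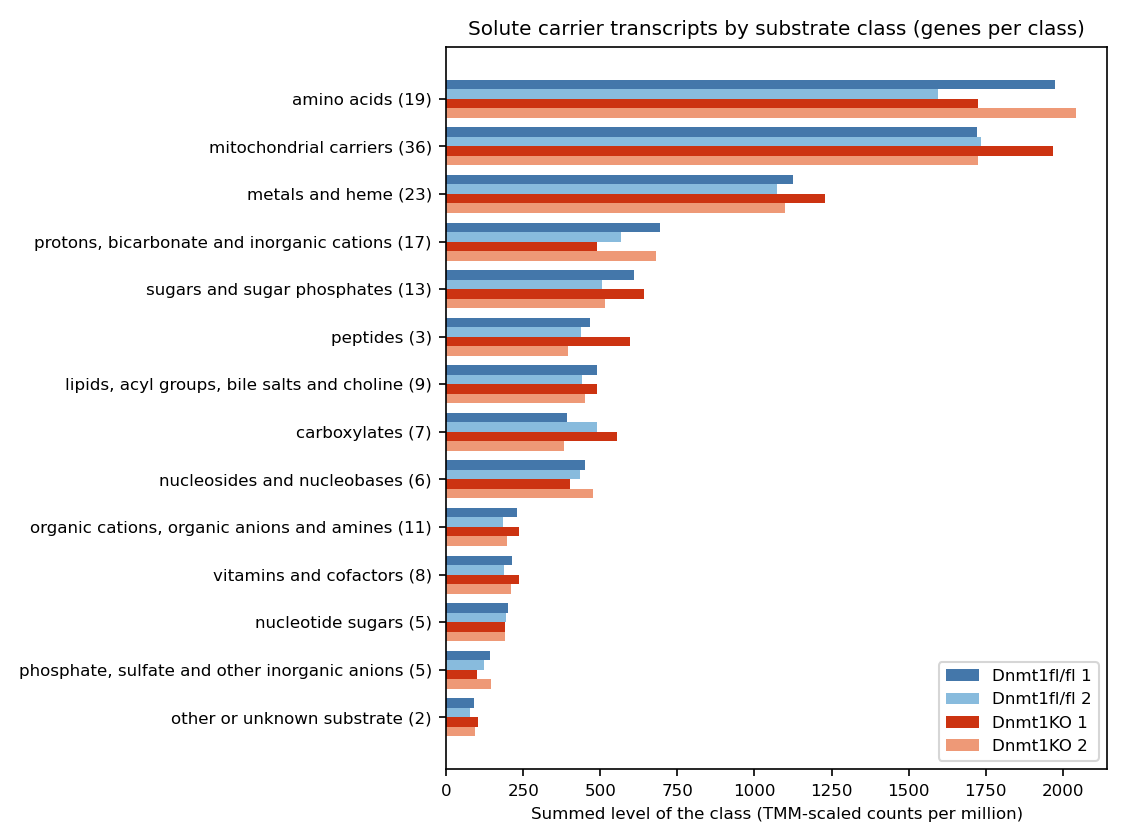
Summed level of each substrate class (horizontal axis, TMM-scaled CPM, starting at 0) in each of the 4 samples; the number of genes stands behind each class name and every bar is a single sample. Amino acid and mitochondrial carriers have the longest bars, and the genotypes overlap in every class but the nucleotide sugars (both Dnmt1KO samples lower) and the other substrates (both higher).

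No member passed the test for a difference between genotypes. By edgeR (quasi-likelihood test, Benjamini-Hochberg adjustment over the 12542 genes tested), the adjusted p was under 0.05 in 0 of the 164 members, beside 0.0% of all genes. At an unadjusted p under 0.05 the members numbered 0, beside 0.279% of all genes (35), and the lowest member p was 0.145. DESeq2 and limma-voom also gave 0 members at either threshold, beside 1 and 0 of all genes after adjustment and 0.311% and 0.319% before it. All 164 members passed the filter on low counts. In 47 members the genotype means lay farther apart on the log2 scale than the standard deviation between replicates (28.7%, beside 23.6% of all genes). The standard error of a member's log2 fold change ran from 0.198 to 1.25 with a median of 0.276, and the overall spread between replicates was a coefficient of variation of 28.9%. With 2 samples against 2, the smallest two-sided p of an exact permutation test is 0.333.

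Described without a test, the members lay on both sides. The Dnmt1KO samples were both above both Dnmt1fl/fl samples in 16 members (9.76%), beside 8.14% of all genes tested, and both below in 17 (10.4%), beside 8.56%. In 32 members (19.5%) the log2 fold change was 0.2 or more, beside 21.8% of all genes, and in 30 (18.3%) it was -0.2 or less, beside 19.7%. These shares were near the background. Another scaling moved the balance in members and in all genes, to 22 and 39 members with total counts only (13.4% and 23.8%, beside 13.5% and 26.7% of all genes) and to 46 and 21 with the length trend described last removed (28% and 12.8%, beside 24.5% and 15.6%). The median member had a log2 fold change of 0.02, and the median over all genes rounded to 0.00. The largest absolute value, 1.04 (SE 0.64), belonged to Slc36a2, a proton-coupled amino acid carrier at low level (0.828, 1.28, 3.18 and 1.19 CPM) that stood out in Dnmt1KO replicate 1 alone, with the other Dnmt1KO sample between the Dnmt1fl/fl samples.

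**Figure D2:**
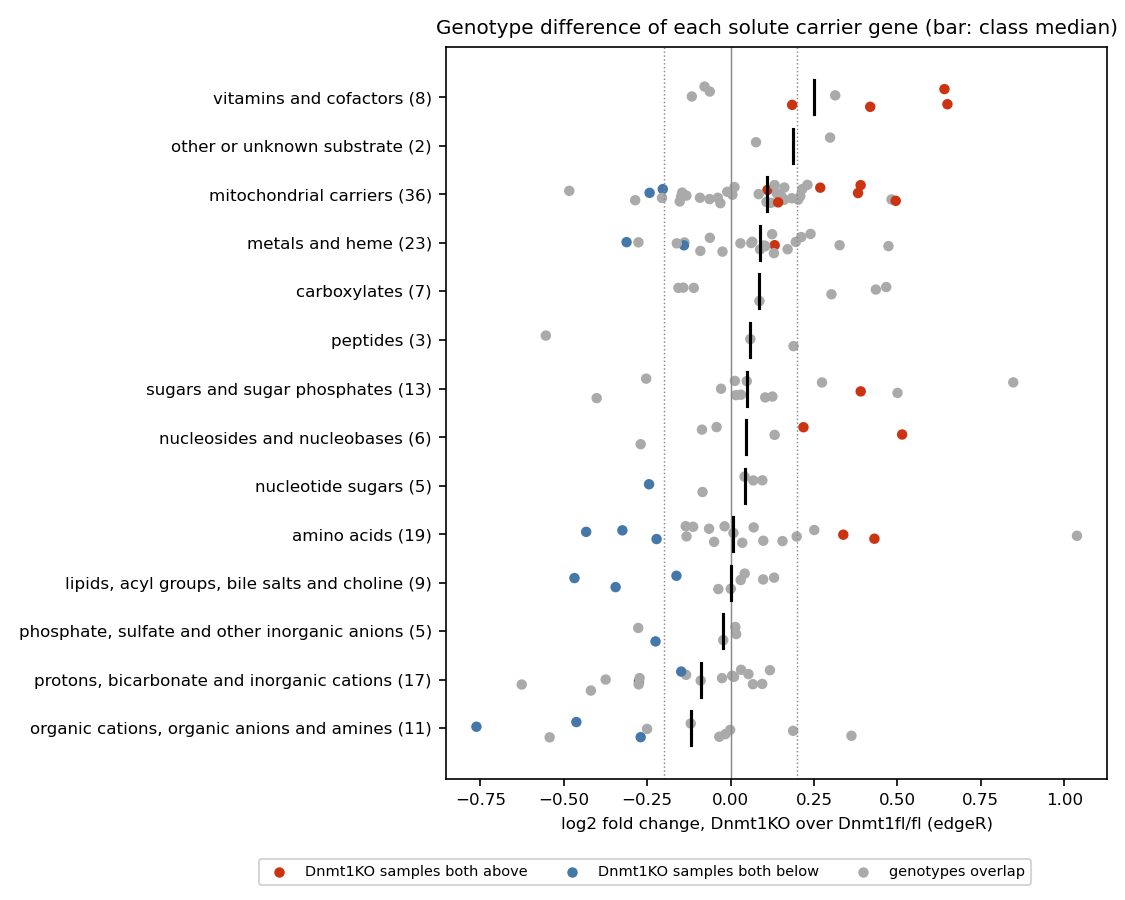
Log2 fold change of Dnmt1KO over Dnmt1fl/fl (horizontal axis) for each of the 164 members, in rows by substrate class, with the class median as a black bar and dotted lines at -0.2 and 0.2. Most points lie between the dotted lines; the class medians run from -0.12 for carriers of organic cations, anions and amines to 0.25 for vitamin carriers, and no point passed the test.

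Among the 19 amino acid carriers the median log2 fold change was 0.01, with 2 members higher and 3 lower without overlap (10.5% and 15.8%, beside 8.14% and 8.56% of all genes). Slc43a2 (LAT4), a facilitated carrier of leucine and other large neutral amino acids, was at 225, 169, 241 and 289.5 CPM, and both Dnmt1KO samples stood above both Dnmt1fl/fl samples although Dnmt1fl/fl replicate 1 came close to Dnmt1KO replicate 1. Its log2 fold change was 0.43 (SE 0.26). Slc38a7, a lysosomal exporter of glutamine and asparagine, was at 41.7, 37.6, 49.9 and 50.2 CPM, with a log2 fold change of 0.34 (SE 0.20) and the lowest unadjusted p of the members, 0.145. Its Dnmt1KO samples were almost equal and lay above both Dnmt1fl/fl samples. Slc1a5 (ASCT2), the main carrier of glutamine across the cell membrane, was at 55.7, 58.5, 41.1 and 50.1 CPM, with a log2 fold change of -0.32 (SE 0.22). Slc7a6 (y+LAT2), which exchanges arginine for neutral amino acids together with Slc3a2, was at 9.21, 9.61, 7.37 and 6.57 CPM, and its log2 fold change of -0.43 (SE 0.28) was the most negative of the members without overlap at 5 CPM or more. In both genes each Dnmt1KO sample was below each Dnmt1fl/fl sample. The cationic amino acid transporter Slc7a1 (CAT1) showed the same order at a smaller distance, at 13.1, 12.2, 11.1 and 10.6 CPM, whereas Slc7a2 (CAT2), the arginine carrier of activated macrophages, overlapped at 57.0, 50.5, 47.8 and 60.3 CPM.

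Other amino acid carriers overlapped between genotypes. Slc6a6 was at 660, 436, 434 and 649 CPM, with 1 high and 1 low sample in each genotype. Slc3a2 was at 182, 179, 286 and 143 CPM, so that the Dnmt1KO samples held both the highest and the lowest value. Slc36a1 (PAT1) and Slc38a9, lysosomal carriers that take part in amino acid sensing by mTORC1, were at 128, 108, 79.7 and 168 CPM and at 37.9, 31.3, 21.5 and 45.2 CPM. In both, Dnmt1KO replicate 1 was the lowest sample and Dnmt1KO replicate 2 the highest. Slc38a2 (SNAT2), an amino acid carrier induced by starvation, was at 67.8, 73.4, 52.01 and 78.6 CPM, in the same order of extremes. Slc7a5 (LAT1), the light chain most often paired with Slc3a2, was low at 4.34, 2.43, 3.28 and 2.88 CPM.

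The 13 carriers of sugars and sugar phosphates had a median log2 fold change of 0.05. Without overlap, 1 member was higher and 0 were lower (7.69% and 0.0%, beside 8.14% and 8.56% of all genes). That member was Slc2a8 (GLUT8), an intracellular hexose transporter, at 15.2, 13.1, 20.6 and 16.6 CPM and a log2 fold change of 0.39 (SE 0.25). Slc2a1 (GLUT1), the main glucose transporter of the macrophage surface, was level in the Dnmt1fl/fl samples at 85.8 and 88.3 CPM and split in Dnmt1KO at 155 and 55.4 CPM. Its Dnmt1KO samples enclosed those of Dnmt1fl/fl, and its log2 fold change was 0.27 (SE 0.48). Slc2a3 (GLUT3), a glucose transporter of high affinity, was at 5.85, 12.1, 25.7 and 6.74 CPM. Slc2a6 (GLUT6), a hexose transporter of lysosomes in macrophages, was at 33.3, 98.5, 62.3 and 37.6 CPM, with Dnmt1fl/fl replicate 2 the highest sample. Slc37a2, a glucose-6-phosphate carrier of the endoplasmic reticulum and the class leader per length at 34.6 CPM per kb, was at 304, 150, 241 and 224 CPM. Slc37a4, the glucose-6-phosphate transporter on which glucose release from the endoplasmic reticulum depends, overlapped at 19.5, 18.4, 22.6 and 18.7 CPM.

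The genotypes overlapped in the 7 members of the carboxylate class, as in most genes (8.14% and 8.56% were free of overlap), and their median log2 fold change was 0.09. Among them was Slc16a10, which carries aromatic amino acids and was placed here with its SLC16 subfamily. Slc16a3 (MCT4), the exporter of lactate from glycolytic cells, was at 85.8, 192, 296 and 79.6 CPM. The highest and the lowest value were both Dnmt1KO samples, and its log2 fold change of 0.44 had an SE of 0.68. Slc16a1 (MCT1), which carries lactate and pyruvate in either direction, lay close in all samples at 16.6, 14.5, 17.3 and 15.7 CPM. Slc16a6 and Slc16a7 (MCT2) were lowest in Dnmt1KO replicate 1, at 34.9 and 26.5 CPM, against 86.2 and 59.0 CPM in Dnmt1KO replicate 2.

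The SLC25 subfamily of mitochondrial carriers was the largest, with 36 members, among them the peroxisomal carrier Slc25a17. Its median log2 fold change was 0.11, with 6 members higher and 2 lower without overlap (16.7% and 5.56%, beside 8.14% and 8.56% of all genes); no member passed the test. The largest values belonged to Slc25a39, which carries glutathione into mitochondria, at 48.2, 46.5, 85.2 and 48.4 CPM and a log2 fold change of 0.49 (SE 0.31). Nearly all of this difference lay in Dnmt1KO replicate 1, and Dnmt1KO replicate 2 was hardly above the nearer Dnmt1fl/fl sample. Slc25a1, the citrate carrier that supplies the cytosol with acetyl groups for lipid synthesis, had the same form, at 39.9, 37.2, 60.5 and 40.0 CPM and a log2 fold change of 0.38 (SE 0.27). Slc25a4, an ADP/ATP carrier, was at 66.4, 67.1, 99.6 and 75.3 CPM, with a log2 fold change of 0.39 (SE 0.24). Slc25a20, the carnitine and acylcarnitine carrier of fatty acid oxidation, was at 28.4, 31.3, 52.6 and 30.9 CPM and overlapped. In these 4 genes Dnmt1KO replicate 1 was the highest sample.

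The 3 carriers of the subfamily with the highest level per length overlapped between genotypes. Slc25a5 was at 256, 269, 326 and 248.6 CPM, Slc25a3 at 368, 353, 440 and 362 CPM, and Slc25a11 at 83.3, 79.8, 112 and 79.1 CPM. Dnmt1KO replicate 1 was again the highest sample of each. Slc25a22, a glutamate carrier, was lower in both Dnmt1KO samples, at 21.1, 20.6, 17.5 and 17.8 CPM, with a log2 fold change of -0.24 (SE 0.22). Slc25a37 (mitoferrin 1), which imports iron for heme and iron-sulfur clusters, was at 61.4, 71.8, 20.6 and 74.6 CPM. A single sample, Dnmt1KO replicate 1, was low, and the log2 fold change of -0.48 had an SE of 0.57. Slc25a28 (mitoferrin 2), its paralog outside the red cell lineage, stayed within 37.6 to 47.2 CPM. Dnmt1KO replicate 1 was the highest sample in 17 of the 36 SLC25 members (47.2%), beside 38.8% of all genes.

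The 23 metal and heme carriers had a median log2 fold change of 0.09, with 1 member higher and 2 lower without overlap (4.35% and 8.7%, beside 8.14% and 8.56% of all genes). Slc30a9, a zinc transporter of mitochondria, was at 65.0, 74.8, 50.8 and 61.8 CPM, with a log2 fold change of -0.31 (SE 0.23), and each Dnmt1KO sample lay below each Dnmt1fl/fl sample. Slc39a14 (ZIP14), an importer of zinc, iron and manganese, followed the same order at 12.9, 12.9, 12.2 and 11.2 CPM. Slc31a2, a copper transporter of endosomes, was the member higher without overlap, at 39.7, 43.3, 44.99 and 46.02 CPM. The heme transporter Slc48a1 (HRG1), which moves heme out of the phagolysosome after red cells are digested, overlapped at 114, 93.2, 138 and 106 CPM. Slc39a1 (179, 186, 227 and 172 CPM), the copper importer Slc31a1 (74.0, 58.7, 68.6 and 85.2 CPM) and the zinc exporter Slc30a1 (78.1, 59.2, 70.6 and 73.0 CPM) overlapped as well. The largest subfamily of the class, the SLC39 zinc importers, had 10 members and a median log2 fold change of 0.11.

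Among the 6 carriers of nucleosides and nucleobases, 2 were higher without overlap (33.3%, beside 8.14% of all genes) and the median log2 fold change was 0.04. Slc29a1 (ENT1), the equilibrative nucleoside transporter of the cell surface, had close replicates, at 81.2, 82.7, 95.0 and 95.6 CPM, and a log2 fold change of 0.22 (SE 0.21). The other was Slc29a2 (ENT2), at 1.12, 1.04, 1.51 and 1.57 CPM. Slc28a2 (CNT2), a sodium-coupled carrier of purine nucleosides and the class leader at 40.3 CPM per kb, was at 164, 207, 119 and 189 CPM. Slc29a3 (ENT3), the nucleoside carrier of lysosomes, overlapped at 196, 134, 180 and 182 CPM. In the 5 nucleotide sugar carriers, which supply the Golgi, Slc35a3, a carrier of UDP-N-acetylglucosamine, was lower in both Dnmt1KO samples, at 65.1, 66.7, 50.5 and 60.8 CPM and a log2 fold change of -0.24 (SE 0.22).

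The 8 vitamin and cofactor carriers had the highest median log2 fold change of the 14 classes, 0.25, and 4 of the 8 were higher in both Dnmt1KO samples (50%, beside 8.14% of all genes); the class is small and was not tested as a set. These were Slc49a4, Slc52a3, Slc46a1 and Slc19a2. Slc49a4, a carrier of the lysosomal membrane, was at 66.9, 73.7, 111 and 77.3 CPM, with a log2 fold change of 0.42 (SE 0.26). Slc46a1, the proton-coupled folate transporter, was at 1.998, 2.23, 3.99 and 2.63 CPM, with a log2 fold change of 0.64 (SE 0.42). Slc52a3, a riboflavin transporter, was at 1.56, 2.03, 2.73 and 2.92 CPM, with a log2 fold change of 0.65 (SE 0.41). Slc19a2, a thiamine transporter, was at 6.92, 5.82, 6.97 and 7.5 CPM, with a log2 fold change of 0.18 (SE 0.29), and its lowest Dnmt1KO value barely passed its highest Dnmt1fl/fl value. These genes were singled out after their values were seen. The class leader Slc23a2 (SVCT2), which imports ascorbate, and the reduced folate carrier Slc19a1 overlapped, at 110, 78.6, 81.5 and 92.8 CPM and at 6.14, 4.90, 4.90 and 5.55 CPM.

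The 17 carriers of protons, bicarbonate and inorganic cations had a median log2 fold change of -0.09, with 0 members higher and 2 lower without overlap (11.8% lower, beside 8.56% of all genes). Slc12a4 (KCC1), a potassium and chloride cotransporter, was at 55.2, 49.5, 47.6 and 39.02 CPM, with a log2 fold change of -0.28 (SE 0.22). The pattern of the class followed a sample. Dnmt1KO replicate 1 was the lowest sample in 13 of the 17 genes (76.5%), beside 39.6% of all genes, and in all 6 sodium and proton exchangers of the SLC9 subfamily. Slc9a9 (NHE9), an exchanger of endosomes, was at 66.8, 45.3, 36.6 and 79.7 CPM, with Dnmt1KO replicate 2 the highest sample. Slc4a7, a sodium and bicarbonate cotransporter linked to acidification of the phagosome, was at 42.9, 29.1, 20.2 and 39.1 CPM.

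In the 9 carriers of lipids, acyl groups, bile salts and choline, 3 were lower without overlap (33.3%, beside 8.56% of all genes) and the median log2 fold change was 0.00. The choline transporter Slc44a1 was at 85.2, 81.7, 79.7 and 69.5 CPM, and the other 2, Slc27a3 and Slc27a6 of the fatty acid transport proteins, were under 5 CPM. Slc27a1 (FATP1), the class leader, overlapped at 185, 130, 156 and 166 CPM. Of the 11 carriers of organic cations, anions and amines, 3 were lower without overlap (27.3%, beside 8.56% of all genes) and the median was -0.12. Slc22a15, a carrier of carnitine and other zwitterions, was at 7.89, 7.62, 6.46 and 6.40 CPM with a log2 fold change of -0.27 (SE 0.28). The others were the vesicular monoamine transporters, Slc18a1 under 2 CPM in every sample and Slc18a2 at 2.19, 1.83, 0.656 and 1.70 CPM with a log2 fold change of -0.76 (SE 0.59), the most negative of all members. Slc17a5 (sialin), the sialic acid exporter of lysosomes, overlapped at 80.2, 69.9, 68.7 and 79.8 CPM.

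Phosphate and sulfate carriers numbered 5, with a median log2 fold change of -0.02. Slc20a1 (PiT1), a sodium and phosphate cotransporter, was at 31.96, 33.8, 26.9 and 29.4 CPM, with a log2 fold change of -0.23 (SE 0.20) and both Dnmt1KO samples below. The 3 peptide carriers overlapped too. Slc15a3 was at 313, 292, 454 and 236 CPM, and Slc15a4, which serves Toll-like receptor signalling from the endolysosome, at 132, 142, 141 and 144 CPM. Slc15a2 (PEPT2) showed the widest range of the members, at 20.9, 4.19, 0.959 and 16.02 CPM. The 2 members of the class of other substrates, Slc46a3 (40.5, 20.4, 19.6 and 44.4 CPM) and Slc66a2 (49.6, 55.9, 82.3 and 47.4 CPM), overlapped.

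**Figure D3:**
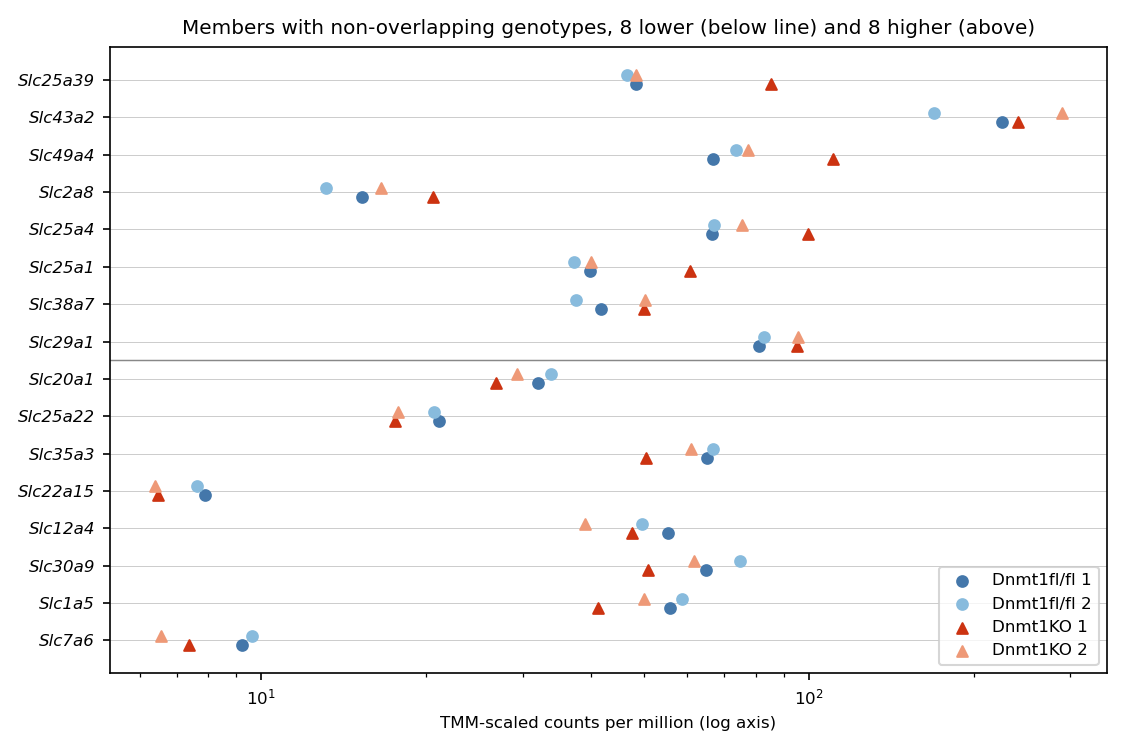
Level in each sample (horizontal log axis, TMM-scaled CPM) of the 8 members with the largest positive and the 8 with the largest negative log2 fold change among those with non-overlapping genotypes and a mean of at least 5 CPM; circles are Dnmt1fl/fl and triangles Dnmt1KO samples. In Slc25a39, Slc25a1 and Slc49a4 a single Dnmt1KO sample stands apart, and in Slc38a7, Slc29a1 and Slc25a22 the Dnmt1KO samples lie together.

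The spread within Dnmt1KO exceeded that within Dnmt1fl/fl for the transporters as for the transcriptome. The Dnmt1KO replicates differed by at least 0.2 on the log2 CPM scale in 122 members (74.4%, beside 77.5% of all genes), and the Dnmt1fl/fl replicates in 77 (47%, beside 51.1%). A difference of at least 1 was found in 27 members (16.5%, beside 17.8%) between the Dnmt1KO replicates and in 7 (4.27%, beside 4.61%) between the Dnmt1fl/fl replicates. Among the 32 members with a log2 fold change of at least 0.2, Dnmt1KO replicate 1, which enters that fold change, was the highest sample in 24 (75%, beside 83.1% of all genes chosen in the same way), and among the 30 at or under -0.2 it was the lowest in 22 (73.3%, beside 80.9%). Slc2a3, Slc16a3 and Slc3a2 were highest in Dnmt1KO replicate 1, where the neutrophil marker sum of 905 CPM was highest too. The part of other cells in these values was not tested.

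**Figure D4:**
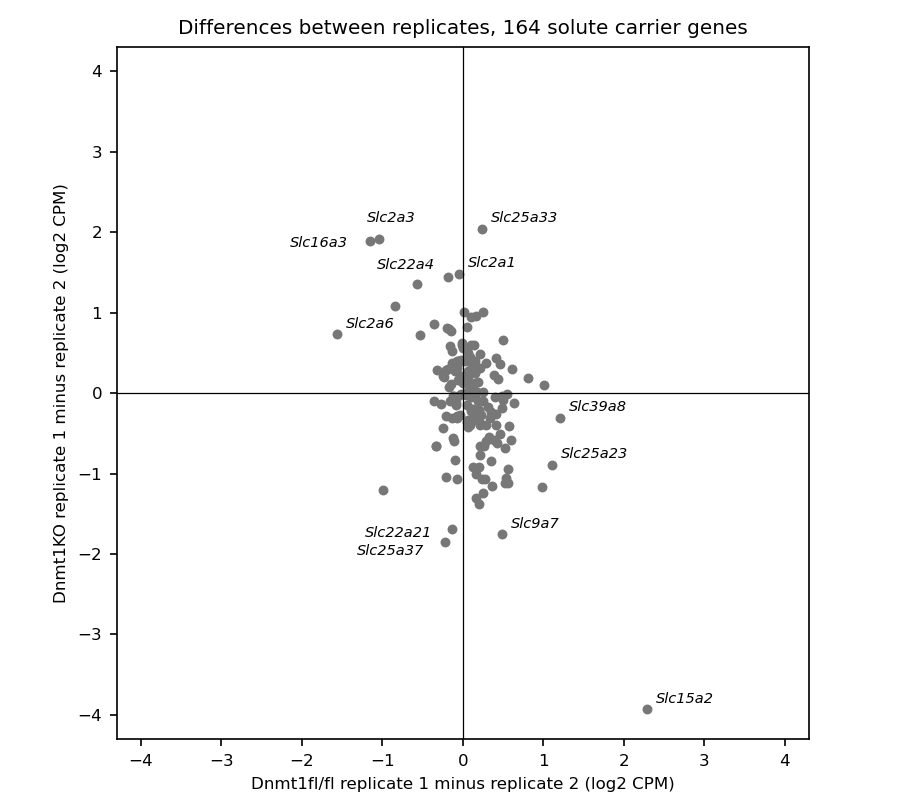
Difference between replicates 1 and 2 on the log2 CPM scale for the 164 members, within Dnmt1fl/fl on the horizontal axis and within Dnmt1KO on the vertical axis, drawn to the same scale. The cloud is taller than wide: 27 members differ by at least 1 within Dnmt1KO and 7 within Dnmt1fl/fl, and Slc15a2, Slc2a3, Slc16a3 and Slc25a37 lie far from the centre.

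With Dnmt1KO replicate 2 left out, edgeR gave 8 members an adjusted p under 0.05 (4.88%, beside 8.32% of all genes, 1061 of 12754). This fit sets a single Dnmt1KO library against both Dnmt1fl/fl samples and assumes that it varies as they do. Slc2a3 (log2 fold change 1.51), Slc25a39 (0.85), Slc2a1 (0.83) and Slc25a20 (0.82) were higher in it, and Slc15a2 (-3.69), Slc25a37 (-1.69), Slc16a6 (-0.95) and Slc16a7 (-0.80) were lower. With Dnmt1KO replicate 1 left out instead, edgeR gave an adjusted p under 0.05 to 0 members and to 0 of all 12912 genes, and an unadjusted p under 0.05 to 5 members (3.05%, beside 2.73% of all genes). The log2 fold change then became -0.42 for Slc2a3, -0.65 for Slc2a1 and -0.80 for Slc16a3, and 0.16 for Slc25a37, 0.36 for Slc15a2, and 0.35 for Slc16a6 and Slc16a7. The log2 fold changes of these glucose, lactate, iron and peptide carriers thus had opposite signs in the fits with either Dnmt1KO sample alone. In Dnmt1KO replicate 2, however, Slc2a3 (6.74 CPM) and Slc15a2 (16.02 CPM) lay between the Dnmt1fl/fl samples. Slc2a1 and Slc16a3 lay below both Dnmt1fl/fl samples there, and Slc25a37, Slc16a6 and Slc16a7 above both. Among the members with non-overlapping genotypes, the log2 fold change of Slc25a39 ran from 0.03 to 0.85 when each sample was left out in turn. For Slc25a1 it ran from 0.05 to 0.65, for Slc49a4 from 0.13 to 0.65 and for Slc18a2 from -1.61 to -0.25. Slc12a4 ran from -0.43 to -0.14, Slc1a5 from -0.47 to -0.19 and Slc35a3 from -0.38 to -0.12. Slc29a1 stayed between 0.21 and 0.24, Slc25a22 between -0.26 and -0.23, Slc38a7 between 0.27 and 0.42 and Slc7a6 between -0.52 and -0.35.

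Transcript length went with these differences. Over 162 members, Pearson's correlation with log10 length was -0.305 for Dnmt1KO replicate 1 minus replicate 2, 0.224 for Dnmt1fl/fl replicate 1 minus replicate 2 and -0.256 for the log2 fold change, which shares samples with both; genes are not independent replicates. The median length was 4300 bases for the mitochondrial carriers and 5154 for the other members. With the length trend removed, the median log2 fold change went from 0.00 to 0.05 over all genes, from -0.09 to 0.01 in the proton, bicarbonate and cation carriers, from 0.11 to 0.15 in the mitochondrial carriers and from 0.25 to 0.31 in the vitamin carriers. Members without overlap then numbered 22 higher and 9 lower, beside 10.9% and 7.61% of all genes. The log2 fold change of Slc22a15 went from -0.27 to -0.08, of Slc25a22 from -0.24 to -0.15 and of Slc35a3 from -0.24 to -0.12. That of Slc30a9 went from -0.31 to -0.18 and of Slc20a1 from -0.23 to -0.14. Slc43a2 went from 0.43 to 0.56 and Slc2a3 from 0.85 to 1.03, whereas Slc25a1 went from 0.38 to 0.31. What lay behind the length trend was not tested.

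Several members share sequence or exons with other genes, and how the counting divided such reads or used strand is not given in the sources used here. In the GENCODE annotation of the same build, 83.5% of the 100-base stretches of Slc39a7 also occur in Gm20427, 20.7% of those of Slc28a2 in Gm14085, 14.8% of those of Slc39a1 in its pseudogene Slc39a1-ps and 12% of those of Slc25a5 in pseudogenes. Exons of Slc15a3 are covered to 28.1% by the antisense gene Tmem132a. The levels of these genes are uncertain to that extent.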

How the data were processed

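RNA from 2 Dnmt1fl/fl and 2 Dnmt1KO samples was sequenced as paired-end reads. Per the labels, the authors aligned to mm10 with HISAT2 2.0.5, counted per gene with featureCounts 1.5.0-p3 and used DESeq2 1.20.0; the annotation and strand setting are not given in the sources used here. The authors deposited estimated counts per gene symbol without normalization, of which 72.6% to 76.4% per sample were whole numbers, and a shorter table whose 2749 rows recur unchanged in the whole table and which was not used. Samples were grouped by their labels. The members, lists, classes and naming rule were chosen with earlier results of these data known, and members outside the naming rule were named after their values were seen. Counts were rounded, filtered with filterByExpr (12542 genes kept), scaled by TMM (factors 0.91 to 1.04) and compared with edgeR 4.0.16 (R 4.3.3) by the quasi-likelihood test with Benjamini-Hochberg adjustment over all genes and no replicate term. The code was tested on simulated data. Named members were a panel of textbook macrophage and main carriers, the 8 largest positive and 8 largest negative log2 fold changes among non-overlapping members with at least 5 CPM, and the leader of each class per length; some of them are not reported here. Differences between replicates used log2(CPM + 0.1). Fold changes from edgeR used its default prior count, and the log2 CPM values for the length trend a prior count of 1. Lengths and shared sequence came from GENCODE M21 and promoters from RefSeq, both on the build of mm10. Alternatives were a replicate block, DESeq2 1.42.0, limma-voom 3.58.1, DESeq2 size factors, total counts, no filter, removal of a length trend (loess, span 0.5), each sample left out and, added after seeing the data, a crossed block. Floors cover counting error only.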

Additional observations from a re-analysis of the deposited data

How the results depend on the processing

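In the fits on all 4 samples (edgeR, DESeq2 and limma-voom) no member passed an adjusted p of 0.05, and leaving out single samples gave 0 to 8. At an unadjusted p under 0.05 there were 0 members, but 1 with the length trend removed (0.61%, beside 0.359% of all genes) and 0 to 43 when a sample was left out (43 without Dnmt1KO replicate 2, 26.2% beside 27.6% of all genes, and 5 without Dnmt1KO replicate 1, 3.05% beside 2.73%). With a replicate block, 28 members had a log2 fold change of at least 0.2 and 34 of at most -0.2. Without the block they numbered 32 and 30. The shares with the block were 17.1% and 20.7%, beside 18.9% and 23.8% of all genes. Same-numbered samples deviated in opposite directions (correlation -0.41). With 2 samples per genotype, crossed numbers necessarily give the same value with the other sign. The labels name no pairing, so what same-numbered samples share is not known. The crossed block, chosen after seeing the data, gave 3 members at an unadjusted p under 0.05 (1.83%, beside 2.37% of all genes) and 0 after adjustment. Leaving out samples gave 32 to 54 members of at least 0.2 and 24 to 58 of at most -0.2 (without Dnmt1fl/fl replicate 1, 32.9% and 14.6% beside 24.8% and 20.4% of all genes; without Dnmt1fl/fl replicate 2, 19.5% and 28.7% beside 29.6% and 25.4%; without Dnmt1KO replicate 2, 31.7% and 35.4% beside 34.3% and 38%). The median log2 fold change, 0.0229, became -0.0371 with total counts only and 0.0861 with the length trend removed, beside -0.0624 and 0.0501 for the median of all genes, and ran from -0.0438 to 0.091 when samples were left out. With the length trend removed, members without overlap numbered 22 higher and 9 lower, in place of 16 and 17. The shares of all genes went from 8.14% to 10.9% higher and from 8.56% to 7.61% lower. Of the 29 members whose log2 fold change is printed, 0 changed sign on all 4 samples and 7 when a sample was left out: Slc15a2 ranged from -3.69 to 1.02, Slc16a3 from -0.80 to 1.14, Slc16a6 from -0.95 to 0.35, Slc16a7 from -0.80 to 0.35, Slc25a37 from -1.69 to 0.16, Slc2a1 from -0.65 to 0.83 and Slc2a3 from -0.42 to 1.51. Over all 62 members of the naming rule, 15 and 37 changed sign. The cause of these changes was not tested.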
